A study of Mus musculus with 131 samples.

Results

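The 22 cells described here are the ends of a ranking of injected stem cell descendants by 5 formative genes: 11 RFP cells with the highest and 11 with the lowest mean log2 level of Otx2, Dnmt3a, Dnmt3b, Pou3f1 and Sall2. They come from a series of 131 mouse samples in which embryonic stem cells (ESCs) were placed into diploid host embryos. All 22 were picked one by one from E4.0 blastocysts of strain C57BL/6J and carry an Actin-RFP transgene, a red fluorescent label expressed broadly. The series' text describes reconstructed embryos made by injecting Actin-RFP ESCs into eight-cell embryos that carry Actin-GFP, in a passage on later embryos of the series, so that 55 RFP cells are taken to stand for the injected line and 40 GFP cells for the host. No label names the embryo, so it is not known how many embryos the cells came from, and the RFP cells go back to a single ESC line. Both sets therefore share tissue, strain, transgene and stage. They were separated by their score, and whether they also differ by embryo is not known.

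A cell entered the ranking if at least 4000 genes had a value above 0, which 35 of the 55 RFP cells met. The cell with the fewest genes among these had 4028, and the one with the most among the other 20 cells had 3982. The score of a cell is the mean over the 5 genes of log2(CPM + 1), where CPM is a cell's reads of a gene per 1000000 reads of that cell, counted over the 13927 genes of the table. The remaining 13 of the 35 cells lie between the sets. Since the cells were chosen by expression and each set counts as 1 sample, no test was made, and every value below describes these cells.

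Pluripotent cells of the mouse pass from a naive state, as in the epiblast before implantation and in ESCs, through a formative state towards the primed epiblast that can respond to signals for germ layers. Otx2 is a homeodomain transcription factor that directs enhancers of this transition, and Pou3f1 (Oct6) is a POU factor switched on during it. Dnmt3a and Dnmt3b write new DNA methylation, which accumulates at implantation, and Sall2 is a zinc finger factor. Fgf5 is the classical marker of the epiblast that has left the naive state, while Zfp42 (Rex1) is a marker of the naive state.

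The start regions of Otx2, a factor of the score, of Fgf5, the classical marker outside it, and of Zfp42, a naive marker, are shown as examples. Each runs from 250 bases before to 50 bases after a start site of RefSeq on GRCm38.p6, 5′ to 3′ on the gene's strand. Of 4 Otx2 windows in the table the one with the core is shown. The Otx2 window is chr14:48665060-48665359 on the minus strand, the Fgf5 window chr5:98253934-98254233 on the plus strand and the Zfp42 window chr8:43306960-43307259 on the minus strand. Capitals mark TAATCC or its other strand GGATTA, the core that Otx2 binds, and ATTTGCAT or its other strand ATGCAAAT, the octamer that POU factors bind.
Otx2: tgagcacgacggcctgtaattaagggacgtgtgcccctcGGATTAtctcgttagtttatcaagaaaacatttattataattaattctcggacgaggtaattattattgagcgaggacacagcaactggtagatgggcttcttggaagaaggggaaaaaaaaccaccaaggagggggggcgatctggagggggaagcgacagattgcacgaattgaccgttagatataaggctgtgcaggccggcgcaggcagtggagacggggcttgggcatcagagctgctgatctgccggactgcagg
Fgf5: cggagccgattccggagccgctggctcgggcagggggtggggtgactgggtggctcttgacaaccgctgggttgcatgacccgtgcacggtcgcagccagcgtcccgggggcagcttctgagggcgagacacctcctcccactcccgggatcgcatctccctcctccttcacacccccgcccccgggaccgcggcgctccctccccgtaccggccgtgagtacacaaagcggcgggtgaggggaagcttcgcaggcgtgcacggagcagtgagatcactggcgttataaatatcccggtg
Zfp42: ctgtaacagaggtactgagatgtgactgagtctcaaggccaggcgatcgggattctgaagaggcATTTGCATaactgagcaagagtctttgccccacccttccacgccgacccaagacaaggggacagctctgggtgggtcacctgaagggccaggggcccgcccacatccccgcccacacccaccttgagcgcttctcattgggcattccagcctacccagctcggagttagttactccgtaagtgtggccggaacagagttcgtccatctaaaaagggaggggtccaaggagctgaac
The Otx2 window holds 1 Otx2 core and no octamer, the Zfp42 window holds 1 octamer and no Otx2 core, and the Fgf5 window holds neither. Among 32851 start regions of the same length, 2320 (7.06%) hold the Otx2 core and 570 (1.74%) the octamer. The Otx2 window was chosen from 4 for holding the core, so the share per region is no measure for it. A match describes letters in the window and no measured binding.

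In the highest set the score ran from 5.89 to 7.56 with a median of 6.52, against 1.28 to 4.36 with a median of 3.65 in the lowest set. Just inside and outside the upper end stood cell 9 at 5.89 and cell 23 at 5.78, and at the lower end cell 16 at 4.36 was inside and cell 4 at 4.55 outside. The score genes chose the cells, so their values only show what the ranking rests on. Otx2 was at 75.4, 212 and 598 CPM (lowest, median and highest cell) in the highest set, against 0, 2.73 and 215 CPM in the lowest set. It reached 10 CPM in 11 highest and 4 lowest cells, and cell 28 at 215 CPM stood at the level of the highest set. Dnmt3a was at 304, 827 and 2607 CPM in the highest set, against 3.10, 102 and 804 CPM in the lowest set. Dnmt3b was at 227, 685 and 1431 CPM in the highest set, against 0.335, 266 and 914 CPM in the lowest set. For both methyltransferases the sets overlapped, and 9 of 11 lowest cells still reached 10 CPM.

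Pou3f1 was at 0, 33.1 and 81.6 CPM in the highest set, of which 9 cells had a read, while none of the 11 lowest cells had one. Sall2 had a read in 3 highest cells, at up to 246 CPM in cell 36, and in 1 lowest cell at 0.320 CPM. The low end of the ranking is thus made mainly of cells without Pou3f1 and with little Otx2, and Sall2 had no read in 8 of 11 highest and 10 of 11 lowest cells. Highest cells 36 and 13 had no Pou3f1 read and the lowest Otx2 of their set, at 75.4 and 101 CPM. Their Sall2 was at 246 and 48.8 CPM. A ranking without Sall2 kept 9 of 11 highest and all 11 lowest cells. Across the lowest set the genes did not go down together. Cell 55 had no Otx2 but the highest Dnmt3a and Dnmt3b of its set, whereas cell 3 had Otx2 reads and Dnmt3b at 0.335 CPM.

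**Figure D1:**
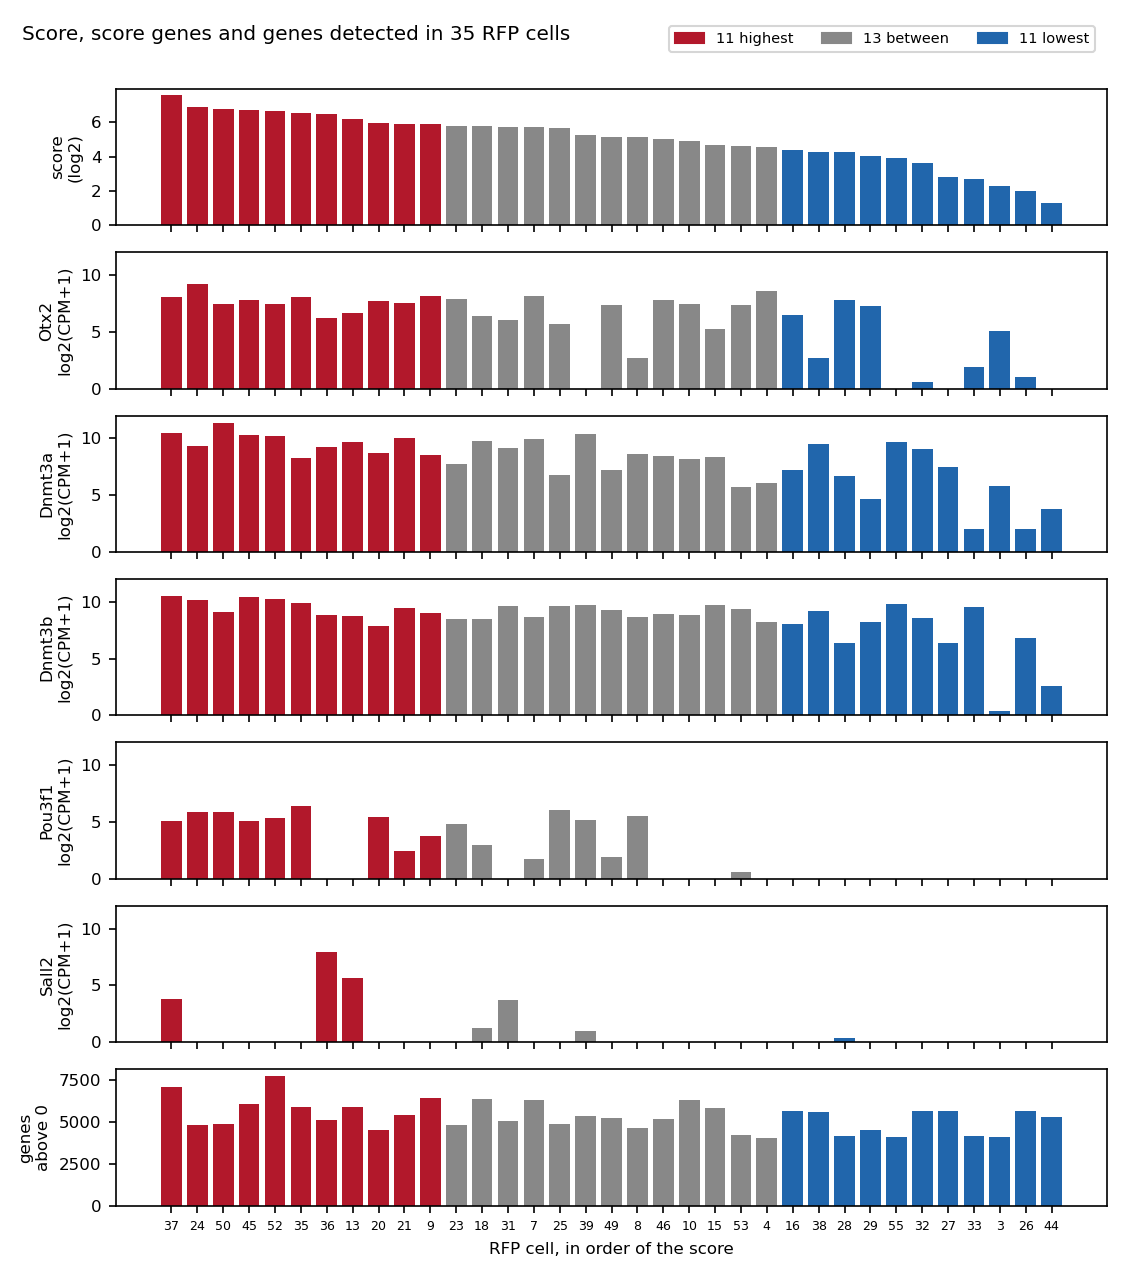
Score, log2(CPM + 1) of each score gene and number of genes above 0 (y axes) in the 35 RFP cells that passed, ordered by score along the x axis, 1 bar per cell. Pou3f1 is missing in all 11 lowest cells, and gene numbers run from 4527 to 7768 in the highest and from 4078 to 5674 in the lowest set.

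Gene detection differed between the sets in the direction of the score. The highest set had 4527, 5871 and 7768 genes above 0 (lowest, median and highest cell), against 4078, 5272 and 5674 in the lowest set. After each cell was thinned to 500000 reads the medians were 4989 genes in the highest and 4345 in the lowest set, and at 1 CPM or more 4996 and 4277 genes. The difference of the medians, 599 genes, is smaller than the spread between cells, with SDs of 1002 genes in the highest and 738 in the lowest set (n = 11 each). The means were 5814 and 4963 genes, a difference larger than the SD of the lowest set and smaller than that of the highest. Ranked without cells above 10% mitochondrial reads, the medians were 5871 and 4516 genes. That difference, 1355 genes, is larger than both of these SDs, which belong to the sets as first ranked. Sequencing depth was alike, at 4110919 to 7478143 reads per cell (median 5344402) in the highest set against 2788020 to 8062210 (median 5121679) in the lowest set. Mitochondrially encoded genes took 1.53% to 3.37% of reads in the highest set against 1.76% to 16.3% in the lowest set, where cell 44 was the only cell above 10%. Over the 35 cells the score had a Spearman correlation of 0.375 with the number of genes detected (Pearson 0.388), with the same libraries on both axes. The part of gene detection in the results below was not tested apart from ranking the cells by a score adjusted for it. That ranking shares 8 highest and 9 lowest cells with the one used here and turns the detection difference round, with medians of 5034 genes in its highest and 5638 in its lowest set. Values under that ranking are given below beside many of the genes and lists. Where none is given, the ratio may still differ under it.

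Cells 44 and 55 of the lowest set stood apart by markers of other lineages, and cell 38 did so by trophectoderm markers. Trophectoderm markers, 12 genes of the outer blastocyst layer, summed to 3.85, 64.0 and 201 CPM in the highest set (lowest, median and highest cell), against 1.49, 105 and 4212 CPM in the lowest set and a median of 9660 CPM in GFP cells. The highest sum was that of cell 55, in which Gata3, a trophectoderm transcription factor, was at 414 CPM and Krt8, a keratin, at 1636 CPM. Of the 5 trophectoderm markers at 10 CPM or more in a set, Gata3, Krt8, Krt18, Dab2 and Id2, all had a log2 ratio of -1 or below, but without cells 44 and 55 that of Gata3 was -0.07 in place of -4.64 and that of Krt18 -0.19 in place of -1.16. Krt8 kept -3.39 in place of -4.91 and Dab2 -4.43 in place of -5.54 without them. Cell 38 stays in the set in these values. Its mean log2(CPM + 1) of the trophectoderm markers was 3.07, against 3.08 in cell 44, 3.82 in cell 55 and a median of 0.860 in the lowest set. Ranked by the adjusted score Gata3 was at -2.18, Krt8 at -2.32, Krt18 at -0.66 and Dab2 at -4.43. Primitive endoderm markers summed to 0, 0.878 and 175 CPM in the highest set, against 0, 0.846 and 731 CPM in the lowest set, again with cell 55 at the top. Gata6, the leading primitive endoderm factor, had a log2 ratio of -1.91 with all cells and 1.55 without cell 55, and -0.06 with the score adjusted for genes detected. Cdx2, the defining trophectoderm factor, had no read in any cell of the highest set, of the lowest set or between them, against 29.8 CPM in GFP cells. Feeder fibroblast markers, of which 5 of 10 are in the table, summed to 1.82, 168 and 442 CPM in the highest set. In the lowest set they summed to 0, 142 and 1291 CPM, with cell 44 at the top.

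Formative genes outside the score were higher in the highest set. Of 16 genes, 13 reached 10 CPM in at least 1 set, and 8 of these had a log2 ratio of summed CPM + 1 of 1 or more while none had -1 or less. The median over the 16 genes was 1.43, against 0 over all 13922 measured genes outside the score. By the same bounds 1843 of 7981 genes were higher (23.1%) and 1325 lower (16.6%), a background that comes from the contrast that chose the cells. It is the background for the counts of the other lists too. The list median stayed above 0 in 17 of 17 other ways of processing. It was 0.98 with the score adjusted for genes detected and 1.46 without cells 44 and 55.

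Fgf5, a secreted growth factor, had reads in 8 highest and 2 lowest cells. The summed level was 138 CPM (95% Poisson interval 135.0 to 140.8) in the highest set, against 13.9 CPM (12.9 to 14.8) in the lowest set, a log2 ratio of 3.23. Single cells ran over 0, 115 and 673 CPM in the highest set (lowest, median and highest), against 0, 0 and 158 CPM in the lowest set. It reached 10 CPM in 7 highest cells and 1 lowest cell, cell 33, without which the log2 ratio was 7.06. Of the 13 cells between, 3 reached 10 CPM, so Fgf5 marked some cells at the top of the ranking and left 3 highest cells without a read.

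Zic5, a zinc finger factor of the early neural and epiblast programme, was at 61.5 CPM in the highest set and 3.13 CPM in the lowest set, a log2 ratio of 3.92 (5.62 without cell 27 and 3.32 without cell 50). It reached 10 CPM in 7 highest cells, 9 of 13 cells between and 1 lowest cell, so that the cells between had as much of it as the highest, at 70.0 CPM. With the score adjusted for genes detected its log2 ratio was 0.64. Grhl2, which opens epithelial enhancers in the formative state, was at 98.2 CPM in the highest set and 26.1 CPM in the lowest set, a log2 ratio of 1.87 (3.59 without cell 32). Its median cell had 83.2 CPM in the highest set, against 0.423 CPM in the lowest set. Lef1, a nuclear partner of beta-catenin, was at 106 CPM in the highest set and 49.9 CPM in the lowest set, a log2 ratio of 1.07. That ratio was below 1 without any 1 of 8 cells, lowest without cell 21 at 0.56, and was 0.53 with the score adjusted for genes detected, and 5 lowest cells lay above the median of the highest. Etv4, Lin28b, Tead2 and Fgf15 completed the 8 genes, each at 10 CPM in 5 or fewer highest cells.

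Other formative genes differed less. Utf1, a chromatin factor of pluripotent cells, was at 422 CPM in the highest and 261 CPM in the lowest set and had reads in all 22 cells (log2 ratio 0.69). Sox4 was at 51.3 CPM in the highest and 27.95 CPM in the lowest set, with 10 and 5 cells at 10 CPM or more (0.85, and 2.08 without cell 28). Dnmt3l, the cofactor of both methyltransferases of the score, was at 247 CPM in the highest and 220 CPM in the lowest set, a log2 ratio of 0.17. Its medians of 272 and 197 CPM lay within wide ranges, with 5 lowest cells above the median of the highest set. Cell 55 had the most Dnmt3l of the lowest set, at 724 CPM, as it did for Dnmt3a and Dnmt3b.

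**Figure D2:**
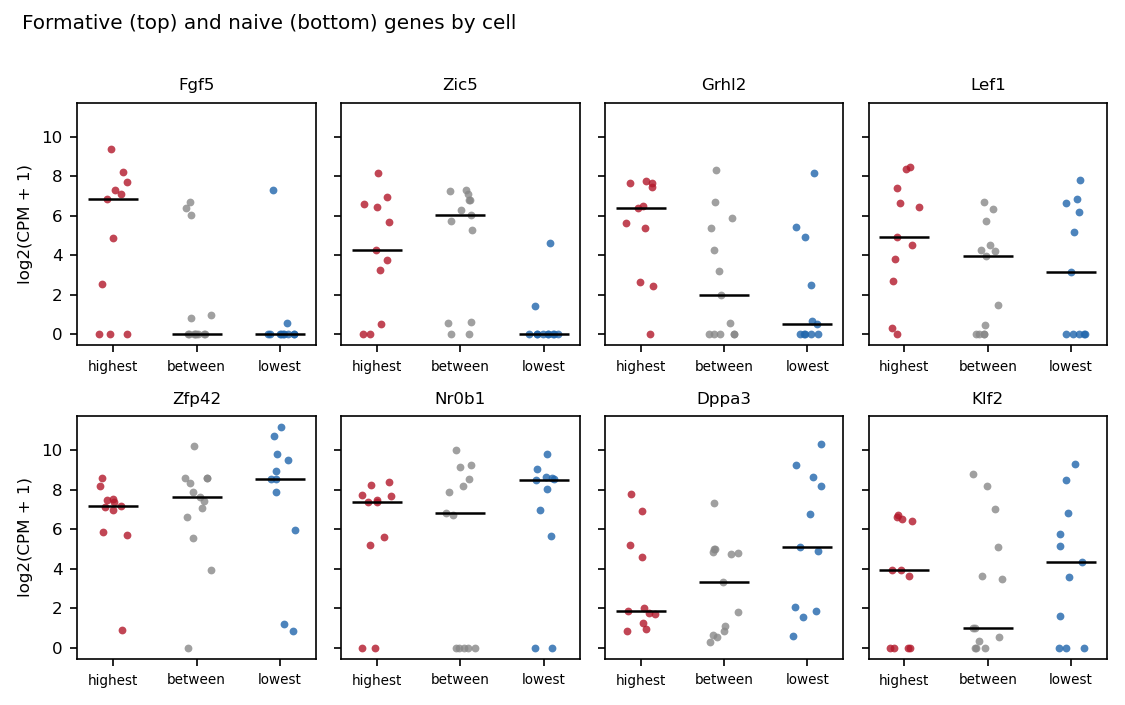
log2(CPM + 1) of 4 formative (top row) and 4 naive genes (bottom row) in the 11 highest, 13 between and 11 lowest RFP cells (x axis), 1 point per cell, black bars at medians. Fgf5 is above 10 CPM in 7 highest cells and 1 lowest cell, while the Zfp42 range of the highest set, 0.859 to 381 CPM, lies within that of the lowest.

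Naive genes leaned the other way but with much overlap. Of 13 genes, 9 reached 10 CPM in a set, none had a log2 ratio of 1 or more and 6 had -1 or less, namely Zfp42, Klf2, Esrrb, Nr0b1, Dppa3 and Nr5a2. The list median of -1.24 is the value of Prdm14, which was read at 10 CPM in 1 cell. It was 0 without cell 28 and 0 with the score adjusted for genes detected, and -0.66 with each cell weighing the same.

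Zfp42 was at 151 CPM (148.2 to 154.2) in the highest set, against 524 CPM (517.7 to 529.4) in the lowest set, a log2 ratio of -1.79. Single cells ran over 0.859, 144 and 381 CPM in the highest set, against 0.781, 378 and 2295 CPM in the lowest set. All 22 cells had a read, and 8 of 11 lowest cells lay above the median of the highest. On the mean of log2(CPM + 1) the sets were at 6.63 ± 2.08 and 7.55 ± 3.52 (SD, n = 11 each), a difference of -0.92 that is smaller than either SD. Nr0b1 (Dax1), a nuclear receptor of the naive network, was at 146 CPM in the highest and 347 CPM in the lowest set, a log2 ratio of -1.24 (-0.89 without cell 27). It was read in 9 cells of each set, and none of the highest cells exceeded the median of the lowest.

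Dppa3 (Stella), a factor of early embryos and germ cells that binds the methylation regulator Uhrf1, was at 41.3 CPM in the highest and 190 CPM in the lowest set, a log2 ratio of -2.17. Without cells 44 and 55 it was -1.34, without cell 13 it was -3.31 and with the score adjusted for genes detected -3.33. Cell 44, the cell with many mitochondrial reads, held 1247 CPM of Dppa3 and the most Zfp42 of its set. Klf2, a Krüppel-like factor of the ground state, was at 35.0 CPM in the highest and 107 CPM in the lowest set, with 7 cells of each set at 10 CPM or more. Its log2 ratio of -1.59 was -0.36 without cell 28, which had 628 CPM. Esrrb, an orphan nuclear receptor, had a log2 ratio of -1.49 that was -0.72 without cell 28, and Nr5a2 had -4.24 that was 0.05 without it. Esrrb was at -0.90 and Nr5a2 at 0.06 with the score adjusted for genes detected. Cell 28 also had the Otx2 level of the highest set, so that Otx2 was read together with Klf2, Esrrb and Nr5a2 there. Other members of both lists were low in it. It had no read of Pou3f1, Fgf5, Zic5, Grhl2 or Lef1, and had Zfp42 at 1.28 CPM and Dppa3 at 3.20 CPM.

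The core pluripotency genes were at like levels in both sets when reads were summed, but less so by cell. All 10 genes reached 10 CPM, none was past a log2 ratio of 1 in either direction, and the median was 0.21. It was 0.53 with each cell weighing the same and -0.03 with the score adjusted for genes detected. The list mean of log2(CPM + 1) was 6.93 ± 0.66 in the highest and 6.18 ± 0.71 in the lowest set (SD, n = 11 each). That difference is larger than both SDs. Tdgf1 (Cripto), the Nodal coreceptor, was at 1461 CPM in the highest set and 1580 CPM in the lowest set. Sall4 was at 483 CPM in the highest and 528 CPM in the lowest set. Sox2 was at 59.5 CPM in the highest and 47.3 CPM in the lowest set, a log2 ratio of 0.32 that was 1.19 without cell 44. Pou5f1 (Oct4) was at 76.2 CPM in the highest and 66.1 CPM in the lowest set. Its log2 ratio was 0.20, and -0.35 with the score adjusted for genes detected. Nanog was at 22.4 CPM in the highest and 40.2 CPM in the lowest set, a log2 ratio of -0.82 (0.05 without cell 28 and 0.03 with the adjusted score). Pou5f1 and Nanog have near-identical pseudogenes, so their counts are uncertain. Zfp281, a zinc finger factor of the exit from the naive state, was at 166 CPM in the highest and 102 CPM in the lowest set and reached 10 CPM in 11 highest and 7 lowest cells. Epiblast markers as a list summed to 1751, 4946 and 6170 CPM in the highest set (lowest, median and highest cell), against 1138, 7084 and 9949 CPM in the lowest set. Spp1, a member of that list, was at 2427 CPM in the highest and 4557 CPM in the lowest set, a log2 ratio of -0.91.

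Among 10 genes of DNA methylation outside the score, Mbd3 alone was higher and Tet2 alone lower by the bound, and the median was 0.38. Mbd3, a subunit of the NuRD repressor complex, was at 184 CPM in the highest and 82.0 CPM in the lowest set, a log2 ratio of 1.16 that was 0.97 without cell 52, 0.84 without cell 21, just under 1 without cell 28 and 0.84 with the score adjusted for genes detected. Tet2, an oxidase that starts demethylation, had -1.02 from few cells. Uhrf1 and Dnmt1, which copy methylation after replication, had log2 ratios of 0.82 and 0.74. Uhrf1 was at 215 CPM in the highest and 121 CPM in the lowest set, with its lowest cell at 59.1 CPM in the highest set and at 0 in the lowest. Tet1 was at 483 CPM in the highest and 532 CPM in the lowest set. None of 10 Polycomb genes at 10 CPM or more was past the bound, at a list median of -0.13.

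FGF signalling drives cells out of the naive state, and the genes of its list past the upper bound were feedback inhibitors and the target Etv4. Of 10 genes at 10 CPM or more 6 were higher and 1 lower (23.1% and 16.6% over all genes), at a median of 1.42. Fgf4, the ligand made by the epiblast, was at 222 CPM in the highest and 442 CPM in the lowest set, a log2 ratio of -0.99 (-0.37 without cell 33), with medians of 182 and 194 CPM. The receptor Fgfr1 was the gene past the lower bound, at 5.27 CPM in the highest and 22.2 CPM in the lowest set. Etv5, a target, was at 303 CPM in the highest and 273 CPM in the lowest set, and reached 10 CPM in all 11 highest and 8 lowest cells. The feedback gene Spry2 was at 416 CPM in the highest and 523 CPM in the lowest set. Spry1, of the same family, was at 46.04 CPM in the highest set, with 3 cells at 10 CPM or more, and had no read in the lowest set, which makes it at least 902-fold higher against a floor of 3 reads over the set. That bound covers the counting of reads only and is no firm lower limit. Dusp4, Dusp6, Etv4, Spred1 and Spred2 were the other genes past the upper bound, each with 4 or fewer highest cells at 10 CPM. Without Otx2 in the score the list median was 0.47, without cell 9 it was 0.69 and without cell 20 it was 0.73.

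Wnt pathway genes had 5 higher of 8 at 10 CPM or more and none lower (Lef1, Tcf7, Lrp6, Fzd7 and Apc), against 23.1% and 16.6% over all genes. The list median of 0.90 was above 0 in 17 of 17 other ways of processing. Apc, the scaffold that destroys beta-catenin, was at 64.2 CPM in the highest and 6.06 CPM in the lowest set, a log2 ratio of 3.21 (3.99 without cell 32, 3.87 without cell 26). It reached 10 CPM in 6 of 11 highest, 9 of 13 between and 2 lowest cells, a larger share of the cells between than of the highest. Fzd7, a Wnt receptor, was at 28.2 CPM in the highest and 5.78 CPM in the lowest set, a log2 ratio of 2.11 (3.61 without cell 27). It reached 10 CPM in 8 highest cells and 1 lowest cell, but had -0.31 with a score of Otx2 and Dnmt3b alone. Ctnnb1, beta-catenin itself, was at 423 CPM in the highest and 255 CPM in the lowest set, and Tcf7l1, its repressive partner, at 55.7 and 40.3 CPM, with 9 highest and 5 lowest cells at 10 CPM or more. Their log2 ratios were 0.73 and 0.46, the second 1.62 without cell 28. Apc was at 2.18, Fzd7 at 1.09 and Tcf7l1 at 1.39 with the score adjusted for genes detected.

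The Nodal, BMP and LIF pathways showed members in both directions, as did all genes, of which 23.1% were higher and 16.6% lower. Of the Nodal list 2 were higher and 3 lower of 8 genes (median 0.09), of the BMP list 2 higher and 1 lower of 5 (0.93, with -0.10 without cell 45 and 0.33 with the score adjusted for genes detected), and of the LIF list 1 higher and 1 lower of 6 (-0.13, and 0.38 with that score). The higher genes were Smad3, Furin, Bmpr1a, Id3 and Stat3, and the lower ones Nodal, Lefty1, Pcsk6, Id2 and Jak1. Each of them was at 10 CPM in 5 or fewer cells of either set. No primitive streak gene, of 5 in the table, reached 10 CPM in a set.

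Genes of epithelial polarity and lumen formation, a step that accompanies the formative transition in the embryo, had 5 higher of 11 and none lower (Podxl, Pard3, Cdh1, Ezr and Lamc1), at a median of 0.99. Over all genes 23.1% were higher and 16.6% lower. Ezr, the linker of membrane and actin cortex, was at 106 CPM in the highest and 38.04 CPM in the lowest set, a log2 ratio of 1.46 (2.85 without cell 27). Single cells ran over 4.87, 88.4 and 236 CPM in the highest set, against 0, 0 and 213 CPM in the lowest set, where 6 of 11 cells had no read. Its mean of log2(CPM + 1) was 5.86 ± 1.79 in the highest and 2.07 ± 2.96 in the lowest set (SD, n = 11 each). Cdh1, epithelial cadherin, was at 119 CPM in the highest and 47.1 CPM in the lowest set, a log2 ratio of 1.32, with medians of 125 and 31.7 CPM. Among the cells between, cell 39 held 794 CPM of Ezr and 1213 CPM of Cdh1, more than any highest cell. With its reads, the summed level of the cells between was about that of the highest set for both genes. Podxl, an apical sialomucin that lines lumens, was at 38.1 CPM in the highest and 13.6 CPM in the lowest set (1.42, and 2.19 without cell 33). Pard3, a polarity scaffold, was at 31.7 CPM in the highest and 12.1 CPM in the lowest set (1.32, with 0.54 without cell 13 and 3.12 without cell 27). The direction of these 4 genes depended on how the cells were ranked. With the score adjusted for genes detected the list median was 0.08, Podxl was at -0.62, Pard3 at -0.70, Cdh1 at 0.60 and Ezr at 0.08, and with Otx2 and Dnmt3b alone Cdh1 was at -0.35 and Ezr at -0.50.

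Of 15 glycolysis genes at 10 CPM or more 3 were higher and 1 lower, no larger shares than over all genes (23.1% and 16.6%). The list median was 0.39, and 0.11 with the score adjusted for genes detected. Slc2a1 (Glut1), the basal glucose transporter, was at 507 CPM (501.1 to 512.2) in the highest set, against 86.5 CPM (84.2 to 88.9) in the lowest set, a log2 ratio of 2.54. Single cells ran over 23.3, 553 and 940 CPM in the highest set, against 0, 41.6 and 488 CPM in the lowest set. None of the 11 lowest cells reached the median of the highest, and 10 of 11 highest cells exceeded the median of the lowest. The mean of log2(CPM + 1) was 8.15 ± 1.90 in the highest and 5.12 ± 2.65 in the lowest set (SD, n = 11 each), a difference of 3.03 that is larger than both SDs. The cells between were at 197 CPM, and with the score adjusted for genes detected the log2 ratio was 1.37.

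Slc2a3 (Glut3), the high-affinity transporter, ran the opposite way at 48.8 CPM in the highest and 186 CPM in the lowest set, a log2 ratio of -1.91 (-2.62 without cell 21). Its median cell had 0.430 CPM in the highest set and 194 CPM in the lowest set, with 5 and 7 cells at 10 CPM or more. Gpi1, which isomerises glucose phosphate, was at 504 CPM in the highest and 209 CPM in the lowest set (1.26, and 0.70 with the score adjusted for genes detected), with every highest cell at 100 CPM or more. Pfkp, a phosphofructokinase, was at 264 CPM in the highest and 81.7 CPM in the lowest set (1.68, and 2.40 without cell 16). Hk2, hexokinase, was at 275 CPM in the highest and 264 CPM in the lowest set. Ldha, which makes lactate, was at 2580 and 1794 CPM (0.52, and 0.23 with the score adjusted for genes detected). Of 20 nuclear genes of the respiratory chain none was past the bound (median -0.01), and mitochondrially encoded genes had a median of -0.32 that was -0.01 without cells 44 and 55.

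**Figure D3:**
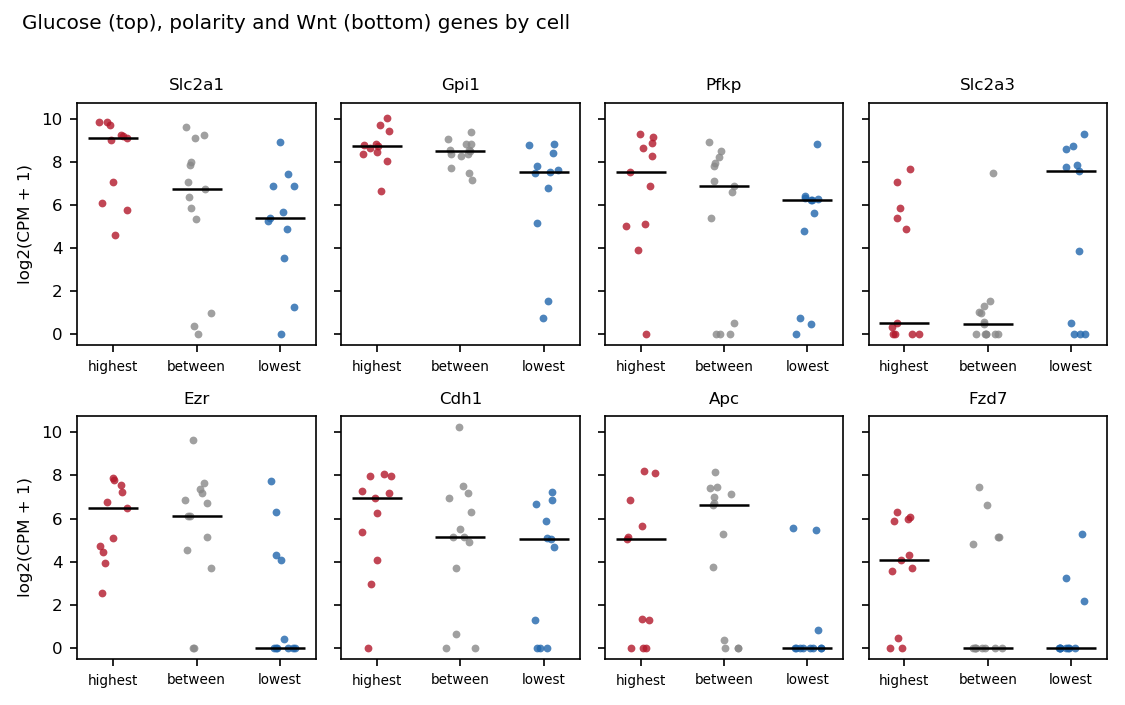
log2(CPM + 1) of 4 genes of glucose handling (top row) and of 2 polarity and 2 Wnt pathway genes (bottom row) in the 11 highest, 13 between and 11 lowest RFP cells (x axis), 1 point per cell, black bars at medians. Slc2a1 has a median of 553 CPM in the highest and 41.6 CPM in the lowest set, and Slc2a3 the opposite order at 0.430 and 194 CPM.

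The 3 lists of proliferation each had 1 gene past the upper bound and none past the lower. S phase genes had a median of 0.01 over 14 genes, mitosis genes 0.48 over 13 and Myc and nucleolar genes 0.05 over 12. With each cell weighing the same, the median of the Myc and nucleolar list was 0.36. On another measure, the list mean of log2(CPM + 1), it was at 8.389 ± 0.383 in the highest and 7.501 ± 0.532 in the lowest set (SD, n = 11 each). That difference is larger than both SDs, and Mycn is among the 12 genes of the mean. Cdt1, which licenses replication origins, was at 226 CPM in the highest and 102 CPM in the lowest set (1.14, with 0.93 without cell 13, 0.97 without cell 27, 0.98 without cell 28 and 0.99 without cell 3), with 11 and 6 cells at 10 CPM or more. Aurkb, a mitotic kinase, was at 131 CPM in the highest and 51.6 CPM in the lowest set (1.33, and 1.96 without cell 27). Under the adjusted score Cdt1 was at 0.52 and Aurkb at 0.79. Mycn, a Myc family factor of the epiblast, reached 10 CPM in 11 highest and 3 lowest cells. It was at 28.6, 90.3 and 597 CPM in the highest set (lowest, median and highest cell), against 0, 0 and 311 CPM in the lowest set. Its summed log2 ratio of 1.70 was 4.20 without cell 38, 5.12 with each cell weighing the same and -0.09 with the score adjusted for genes detected. Of 80 ribosomal protein genes at 10 CPM or more none was past the bound, at a median of -0.01.

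In the p53 and apoptosis list 3 of 12 genes were higher and 1 lower (median 0.61), against 23.1% higher and 16.6% lower over all genes. The part of this list that was higher was thus close to that over all genes. The same background applies to the Atf4 and heat shock lists below. Mdm2, the ligase that degrades p53, was at 101 CPM in the highest and 249 CPM in the lowest set, a log2 ratio of -1.29, with medians of 105 and 246 CPM. Bbc3 (Puma), which triggers apoptosis, was at 20.6 CPM in the highest and 5.41 CPM in the lowest set (1.75, with 3.55 without cell 26 and 1.07 with the score adjusted for genes detected). Zmat3, an RNA-binding p53 target, was at 33.3 CPM in the highest and 5.39 CPM in the lowest set (2.43, and 4.17 without cell 16), and Apaf1 was the remaining higher gene. Trp53 was at 537 CPM in the highest and 407 CPM in the lowest set, and its target Cdkn1a at 231 and 212 CPM (0.12, and 0.74 without cells 44 and 55). In the Atf4 and amino acid list 4 of 12 genes were higher and none lower (median 0.04). Slc7a3, a transporter of basic amino acids, was at 612 CPM in the highest and 271 CPM in the lowest set (1.17), but at medians of 284 and 301 CPM, and without cell 13 the ratio was 0.83 without cell 21 it was 0.98 and with the score adjusted for genes detected 0.19. Shmt2, which feeds one-carbon metabolism in mitochondria, was at 124 CPM in the highest and 59.5 CPM in the lowest set (1.04, below 1 without any 1 of 12 cells, 0.63 without cell 21 and 0.70 with the score adjusted for genes detected), and Ddit4 and Trib3 were the other higher genes. Heat shock and immediate early genes had Junb, Atf3 and Hspa1b higher of 9 and none lower (median 0.52, with 1.39 without cell 44 and -0.13 with the score adjusted for genes detected).

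**Figure D4:**
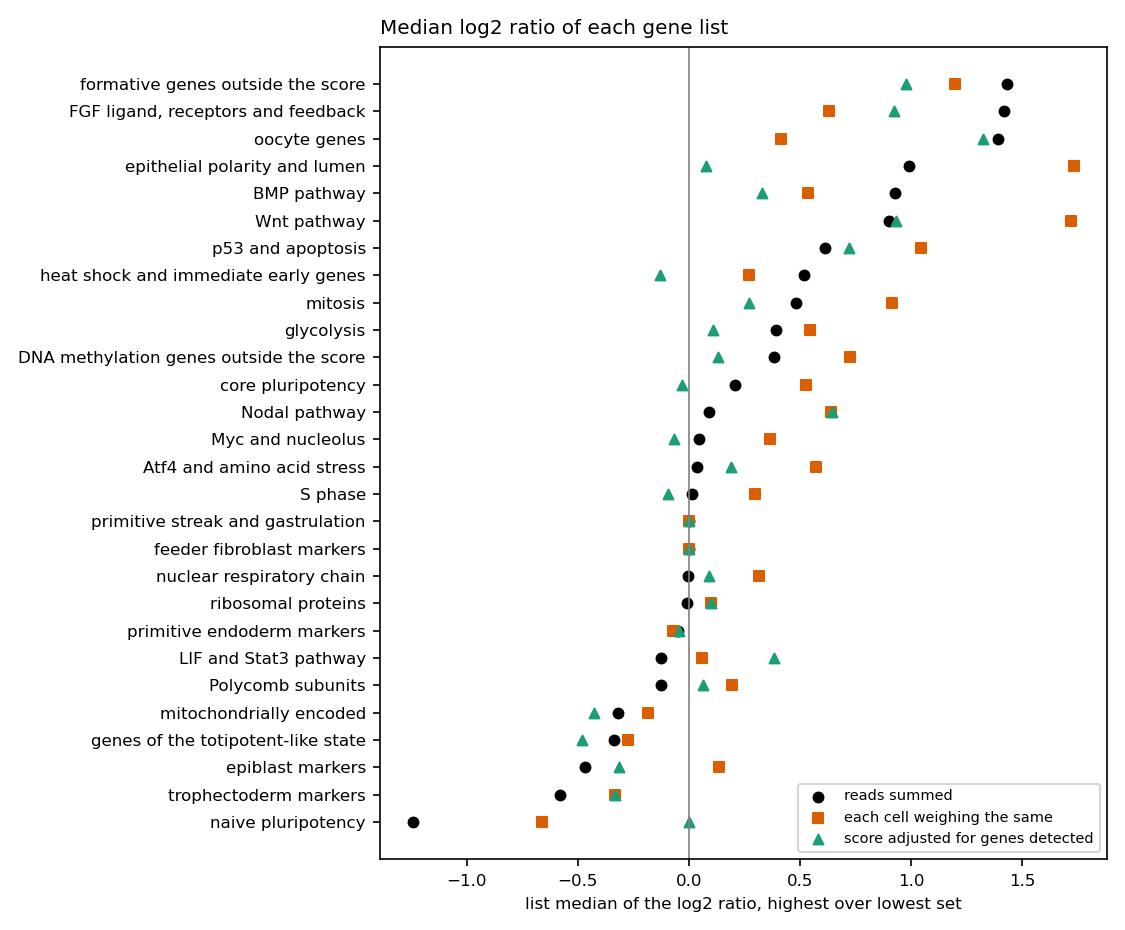
Median log2 ratio of each gene list, highest over lowest set (x axis), with reads summed (circles), each cell weighing the same (squares) and the score adjusted for genes detected (triangles). The formative list has 1.43, 1.20 and 0.98 and the naive list -1.24, -0.66 and 0.

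Of single genes outside the lists, 15 were named at each end by the size of the ratio among 3282 genes with a median of 10 CPM or more in a set and the same sign with each cell weighing the same. The numbers of cells at 10 CPM or more given for these genes follow largely from that choice, and are no separate support for the ratios. At the upper end 5 genes had no read in any lowest cell. Rab25, a small GTPase of epithelial membrane recycling, was at 102 CPM in the highest set, with 8 of 11 cells at 10 CPM or more, and was at least 1997-fold higher against the floor of 3 reads over the lowest set. Shroom2, which shapes the actin cortex of epithelia, was at 97.4 CPM in the highest set and at least 1909-fold higher. Snapc2, a subunit of the complex that transcribes small nuclear RNAs, was at least 1319-fold higher. Carm1, the arginine methyltransferase of histone H3, was at 53.3 CPM in the highest set with 8 cells at 10 CPM or more and at least 1045-fold higher. Fcor, a Foxo1 corepressor, was at least 676-fold higher. These bounds cover the counting of reads in these cells only. Since a read is not an independent unit here, they are no firm lower limits. In the 13 cells between, these 5 genes stood at 46.5 CPM for Rab25, 14.7 CPM for Shroom2, 46.4 CPM for Snapc2, 13.3 CPM for Carm1 and 5.95 CPM for Fcor. Under the score adjusted for genes detected the log2 ratios were 1.93 for Rab25 (in place of 6.69), 2.15 for Snapc2 (6.09), 2.59 for Carm1 (5.76), 1.97 for Fcor (5.15) and 6.44 for Shroom2 (6.62). Fcor was at 0.10 with no minimum of genes per cell and Snapc2 at 0.69 with a score of Otx2 and Dnmt3b alone.

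BC052040 was read most evenly, with 10 of 11 highest cells and none of 11 lowest cells at 10 CPM or more. It was at 113 CPM in the highest and 0.884 CPM in the lowest set, a log2 ratio of 5.92 (6.73 without cell 33). Nsmaf, an adaptor of the neutral sphingomyelinase, had 2 reads in the lowest set, and its ratio of summed CPM was 1532 with a counting interval of 424 to 12660. The other genes were Alg10b, Nsdhl, Glg1, Abhd4, Gbe1, Zmym2, Rexo1 and Cdk8, with log2 ratios of 4.96 to 5.96. Alg10b was at 4.85 without cell 35, Abhd4 at 6.40 without cell 32, Gbe1 at 4.42 without cell 24 and 5.84 without cell 16, and Zmym2 at 4.45 without cell 36 and 6.11 without cell 27. Nsmaf was at 5.05 without cell 36, in place of 5.68. Under the adjusted score Nsdhl was at 0.96 in place of 5.79, Alg10b at 2.69, Gbe1 at 2.41, Rexo1 at 2.51, Cdk8 at 2.73 and BC052040 at 5.23. Zmym2 was at 0.84 with Otx2 and Dnmt3b alone. Nsdhl belongs to cholesterol synthesis, Gbe1 branches glycogen and Cdk8 is the kinase of the Mediator complex.

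At the lower end the ratios were smaller, from -4.73 to -2.79. Cradd, a death domain adaptor that assembles the caspase-2 complex, was at 0.730 CPM in the highest and 44.8 CPM in the lowest set (-4.73), with no highest and 6 lowest cells at 10 CPM or more. Irak3, a brake on Toll-like receptor signalling, was at 8.67 CPM in the highest and 147 CPM in the lowest set (-3.93, with -5.04 without cell 52 and -3.34 without cell 33). D11Wsu47e was at 10 CPM in 1 highest and 8 lowest cells (-3.80, and -5.84 without cell 35). Hif1an, the hydroxylase that restrains hypoxia-inducible factor, was at 14.9 CPM in the highest and 151 CPM in the lowest set (-3.25, with -1.91 without cell 28 and -4.30 without cell 37). Ube2h, a ubiquitin-conjugating enzyme, reached 10 CPM in 1 highest and 9 lowest cells (-3.21, and -4.61 without cell 36). The cells between were at 39.1 CPM of it and the lowest at 37.6 CPM. Under the adjusted score D11Wsu47e was at -0.51, Hif1an at -0.97, Irak3 at -1.66 and Ube2h at -1.77, while Cradd was at -5.27.

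The remaining 10 were Dtx1, Tprkb, Chmp2b, Lrrc34, Chchd5, Sun1, Stk17b, Tmem245, Zfp825 and Ing3. Single cells weighed on most of them. Stk17b, a kinase, was at -2.81 with all cells, -0.71 without cell 28 and -3.57 without cell 36. Ing3, a subunit of a histone acetyltransferase, was at -2.79, -1.28 without cell 28 and -4.03 without cell 52. Sun1, of the nuclear envelope, was at -2.82, -2.09 without cell 28 and -4.27 without cell 52. Tmem245 was at -2.79, -1.58 without cell 44 and -3.57 without cell 9. Tprkb was at -3.06, -2.35 without cell 33 and -4.50 without cell 52, and Lrrc34 at -3.005, -2.30 without cell 26 and -5.07 without cell 13. Dtx1 was at -3.11 and at -4.69 without cell 52, Chchd5 at -2.83 and at -2.24 without cell 27, and Zfp825 at -2.79 and at -4.13 without cell 36. Ranked by the adjusted score Ing3 was at -0.46, Chmp2b at -0.79 in place of -3.06 and Stk17b at -0.85, all inside the bound, while Zfp825 was at -1.20, Chchd5 at -1.61, Sun1 at -1.79, Tprkb at -4.71 and Dtx1 at -5.19.

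Across all 35 cells, the mean level of the formative list outside the score had a Spearman correlation of 0.609 with the score. Its correlation with the number of genes detected was 0.596, and within the 13 cells between it was -0.209 with the score. The list mean on the log2(CPM + 1) scale was 3.37 ± 0.80 in the highest, 2.43 ± 0.53 in the between and 1.89 ± 0.58 in the lowest cells (SD, n = 11, 13 and 11). The naive list had a correlation of -0.214 with the score over 35 cells, -0.390 in the cells between and -0.145 without cell 44. Its means were 2.51 ± 0.74 in the highest, 2.08 ± 0.98 in the between and 3.03 ± 0.998 in the lowest cells. The cells between thus had the lowest naive level, and the naive means of the 2 sets differed by less than 1 SD of the lowest set. Myc and nucleolar genes had a correlation of 0.577 with the score, Wnt genes 0.556 and polarity genes 0.505, and these lists had 0.474, 0.467 and 0.650 with the number of genes detected. Within the 13 cells between their correlations with the score were -0.027, -0.022 and -0.165. These correlations describe the same libraries on both axes and carry no test.

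**Figure D5:**
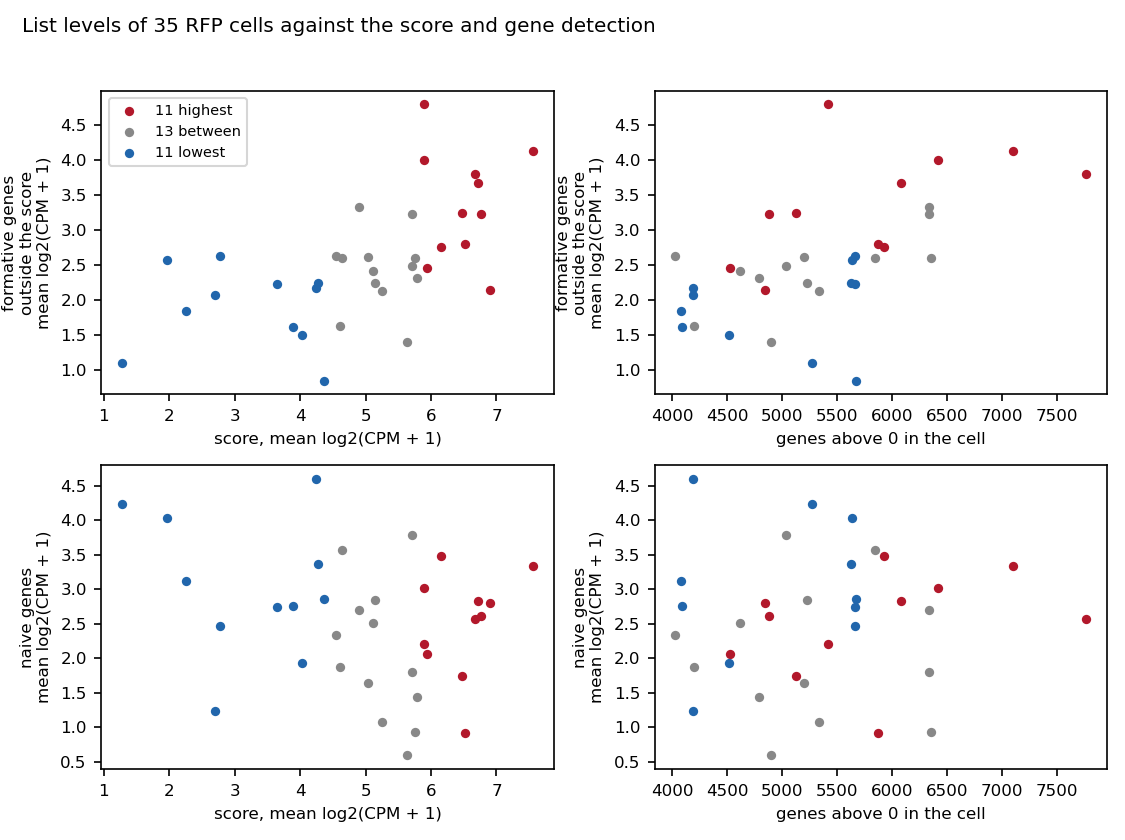
Mean log2(CPM + 1) of the formative genes outside the score (top) and of the naive genes (bottom) against the score (left) and the number of genes above 0 (right) in 35 RFP cells, 1 point per cell, coloured by set. The formative list has a Spearman correlation of 0.609 with the score and 0.596 with the gene number, and the naive list -0.214 with the score.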

How the data were processed

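Single cells were amplified as full-length cDNA and sequenced as paired 150 bp reads, per the labels' protocols. Per the submitters' processing notes, build mm10 and, among other tools, DESeq2 1.30.0, STAR 2.7.3a, fastp 0.20.0 and featureCounts 2.0.0 were named without their roles. The values the authors deposited are a signal: gene counts divided by 1 factor per cell, without scaling by gene length. Every value was a whole multiple of its cell's smallest step (100% within 0.01), which gave reads back. Of the values above 0, 87.0% were even numbers of reads, so a read is not an independent unit, and the Poisson intervals, which cover counting error only, are too narrow. The labels' protocols name a kit with no step for molecular identifiers. Levels are not per length and were not compared between genes.

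The reads of the 11 cells of each set were added up (63006682 in the highest and 58787247 in the lowest set), scaled to CPM and compared as the log2 ratio of CPM + 1, highest over lowest set; low genes are understated. "Past the bound" means a ratio of 1 or more, or -1 or less, with at least 10 CPM in a set. No count test was run, since each set is 1 sample. Genes were named by ratio (15 at each end, predicted genes left out) and, within lists, by a median of 10 CPM in a set; other list members past the bound are named after their values were seen. The cells, lists and rules were chosen with earlier results of these data known. Symbols came from a reference table for 13922 of 13927 identifiers. The closest pair of RFP cells had a Pearson correlation of 0.731, so none was a repeat. No doublet caller was run on picked cells. The amplicon and bisulfite files and other single cells were not used here. Python 3.11.15, numpy 2.4.6, pandas 2.3.3 and scipy 1.17.1 were used, and the steps were tested on simulated data. Alternatives changed the pseudocount, weighting, scaling, depth, set size, gene minimum and score, and left out each cell in turn.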

Additional observations from a re-analysis of the deposited data

How the results depend on the processing

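The sets themselves depend on the ranking: with the score adjusted for genes detected, 8 highest and 9 lowest cells were shared with the sets as reported, and with no minimum of genes per cell 11 and 2. A minimum of 6000 genes left 7 RFP cells and was not run. No paired analysis was possible because the result comes from no test and both sets hold cells of 1 group, whose numbers only name them. The median gene number was 644 to 1355 higher in the highest set at 1 CPM or more, after thinning and without cells above 10% mitochondrial reads. It was 5871 against 3497 with no minimum of genes per cell, but lower in the highest set with the score adjusted for genes detected (5034 against 5638) and without Dnmt3a (5126 against 5626). Each set's depth limits a gene at 0 to 3 reads.

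Genes higher by the bound numbered 3419 with no minimum of genes per cell, 3095 with no minimum CPM and 952 at a log2 ratio of 2, and 1800 to 2042 when 1 cell was left out; genes lower numbered 604 with each cell weighing the same, 604 at a log2 ratio of 2, and 1291 to 1488 when 1 cell was left out. The cause of the changes below was not tested. With no minimum of genes per cell, list medians were -0.14 for naive, 2.33 for FGF, 1.81 for Nodal, 2.002 for Wnt, 2.15 for BMP, 2.41 for LIF, 2.36 for polarity, 1.98 for mitosis and -0.54 for oocyte genes, while Cdk8 was at -0.10, Tprkb at 2.27, Sun1 at 0.36, Stk17b at 0.91, Ing3 at 2.16, Grhl2 at -0.48, Nr5a2 at 0.15, Mdm2 at 0.46, Krt18 at 0.23 and Gata6 at 1.56. A pseudocount of 10 gave medians of 0.68 for formative, 0.66 for FGF and 0.22 for oocyte genes, and each cell weighing the same gave 0.63 for FGF and 0.41 for oocyte genes. The authors' scaling gave -0.55 for primitive endoderm and 3.32 for oocyte genes. With 8 cells at each end the medians were 0 for naive and 2.56 for BMP genes, Klf2 was at 0.040 and Nr5a2 at 0.081, and with 15 cells FGF genes had 0.72, Podxl -0.15 and Pard3 -0.57. Without cells above 10% mitochondrial reads FGF genes had 0.77. With the score adjusted for genes detected naive genes had 0, Nr5a2 0.060, Podxl -0.62, Pard3 -0.70 and Mycn -0.089.

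Without Otx2 in the score FGF genes had 0.47, oocyte genes 2.54, Chmp2b 0.43, Stk17b 0.62, Pard3 -0.68, Shmt2 -0.085, Krt18 0.54 and Gata6 1.51. Without Dnmt3a Nodal genes had 1.31 and Podxl -0.96, and without Dnmt3b naive genes had 0, Nodal genes 1.24, Nr5a2 0.063, Podxl -0.62 and Pard3 -0.22. Without Pou3f1 formative genes had 0.65, oocyte genes 0, Fzd7 -0.20 and Cdh1 -0.22. With Otx2 and Dnmt3b alone formative genes had 0.67, FGF genes 0.71, oocyte genes 0.048, Fzd7 -0.31, Cdh1 -0.35 and Ezr -0.50. Leaving out 1 cell gave medians of 1.14 to 1.63 for formative, -1.33 to 0 for naive (0 without cell 28), 0.69 to 1.78 for FGF, -0.10 to 1.31 for BMP and 0 to 1.50 for oocyte genes, Nr5a2 at -4.44 to 0.047 (without cell 28) and Gata6 at -3.46 to 1.55 (without cell 55, and 1.73 without cells 44 and 55, an alternative chosen after seeing the data). The other list medians moved by less than the spread between cells.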

Other observations

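Oocyte genes, of which 3 of 8 are in the table, had reads in some highest cells and none in the lowest. Zp3, a zona pellucida protein, was at 16.3 CPM in the highest set, from 2 cells at 10 CPM or more, of which cell 20 had the most at 114 CPM. Genes of the totipotent-like state, a rare state of cultured ESCs marked by the Zscan4 family, had 1 of 2 genes at 10 CPM or more past the lower bound. That gene, Zscan4d, was at 0.0317 CPM in the highest and 10.2 CPM in the lowest set, where cell 38 alone held 80.9 CPM and no other cell of the set reached 10 CPM. Its family has near-identical copies, so its count is uncertain.

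The 20 RFP cells below the gene minimum had scores of 0.0858, 2.42 and 4.90 (lowest, median and highest), and Pou3f1 was read in 1 of them, at 0.733 CPM, and Sall2 in none. Their formative list outside the score had a mean of 1.43 ± 0.74 on the log2(CPM + 1) scale (SD, n = 20). Mitochondrially encoded reads reached 62.0% in these cells.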
